A study of Homo sapiens with 3 samples.

Results

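EGLN3, GRIK4, UNC80 and FOXD4L5 lie at 4 of the 1 kb windows in which DNA methylation fell furthest in SOX4 knockout Hep3B cells. The rule that selects them takes every CpG within 20 kb of those windows that had at least 5 reads in each of 3 libraries, with the reads of both strands of a CpG summed. It finds 187 CpGs of 2744301 in the whole data set, of which 93 lie at EGLN3, 39 at GRIK4, 7 at UNC80 and 48 at FOXD4L5. Hep3B is a human hepatocellular carcinoma cell line. The study compared 1 library of parental Hep3B cells with 1 library from each of 2 SOX4 knockout lines made from them by CRISPR/Cas9, SOX4 KO #1 (line 1 here) and SOX4 KO #2 (line 2), to ask how loss of this SOX family transcription factor relates to DNA methylation. By the study's methods the knockout cells were kept in medium with puromycin, which is not stated for parental Hep3B, so that knockout and puromycin cannot be told apart. All 3 libraries started from 500 ng of DNA, were captured with the same probe set for CpGs and were read after bisulfite treatment, in which an unmethylated C is read as T. Whether each line is a single clone was not given in the sources used here, and the SOX4 edit itself is not examined here.

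EGLN3 encodes an oxygen-dependent prolyl hydroxylase (PHD3) that marks the HIF alpha subunits for degradation, and its own transcription is induced by HIF in low oxygen. GRIK4 encodes a subunit of the kainate class of glutamate receptors, known from the brain. UNC80 encodes a large scaffold subunit of the NALCN sodium leak channel, which sets the resting excitability of neurons. FOXD4L5 encodes a forkhead protein of the FOXD4 family, whose near-identical copies lie in duplicated sequence on chromosome 9. CpGs inside the bodies of genes are often methylated, whereas dense groups of CpGs at gene starts are often free of methylation.

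Positions are given in GRCh37, the build in the submitters' processing notes, and a CpG is named by where its G lies on the forward strand. Of the member CpGs, 10 lie inside the EGLN3 window (chr14:34407001-34408000), 6 inside the GRIK4 window (chr11:120504001-120505000), 7 inside the UNC80 window (chr2:210737001-210738000) and 8 inside the FOXD4L5 window (chr9:70179001-70180000). The first 3 windows lie in the named gene and the last at its gene, by the rule. Exons and introns were not assigned, since an annotation of this build was not used here. The windows were chosen by the differences between these same libraries, so their levels are a description and carry no test. With at least 10 reads per CpG, the setting under which they were chosen, the windows of EGLN3, FOXD4L5, GRIK4 and UNC80 ranked 2, 3, 4 and 5 of 113184 windows by the smaller fall of the knockout lines. The UNC80 window, just inside, fell by 48.4 percentage points, the next window, just outside, by 48.3 points and the first-ranked window, at none of these genes, by 60.6 points. With at least 5 reads the 4 windows ranked 3, 24, 9 and 11 of 140947.

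The promoter of EGLN3 is shown because the gene start, the CpG-dense element of the locus, could be set against the window downstream of it. The sequence is from RefSeq (GRCh38.p14, chr14:33951075-33951324, minus strand), runs 5′ to 3′ and ends at the base before the annotated start, with every CpG in capitals.
EGLN3 promoter: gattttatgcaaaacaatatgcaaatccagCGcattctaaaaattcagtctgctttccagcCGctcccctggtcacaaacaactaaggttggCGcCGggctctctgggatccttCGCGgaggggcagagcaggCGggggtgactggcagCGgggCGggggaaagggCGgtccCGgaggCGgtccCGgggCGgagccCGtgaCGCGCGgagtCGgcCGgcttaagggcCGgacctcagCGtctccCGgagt
These 250 bases hold 23 CpGs and 64% G and C. Among 35116 RefSeq promoters of the same length the median was 11 CpGs, and 25.8% held at least as many as EGLN3. Matching the spacing of the CpGs to the positions in the files placed the start at 34420280 in GRCh37, 4 bp from the start that the rule gives. Of the 23 CpGs, 19 had reads in the files and all 19 were members.

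CpG reads came to 104702738 (parental), 96987706 (line 1) and 133170621 (line 2), with medians of 26, 24 and 32 reads over the CpGs compared. Over all of them the mean methylation level was 44.1% in parental Hep3B, 40.0% in line 1 and 41.9% in line 2. Line 1 therefore differed from parental by -4.08 points and line 2 by -2.14 points as a background. Intervals below are exact Clopper-Pearson 95% intervals, which cover counting error only since PCR copies of a molecule can be read more than once. Pooled reads also count a molecule again at each neighbouring CpG that it covers. Pooled intervals are therefore narrower than the number of molecules would allow, and whether they overlap is a description and not a test. With 1 parental library, every test compares libraries and not conditions, and an exact permutation test of 1 against 2 libraries cannot give a p below 0.333.

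**Figure D1:**
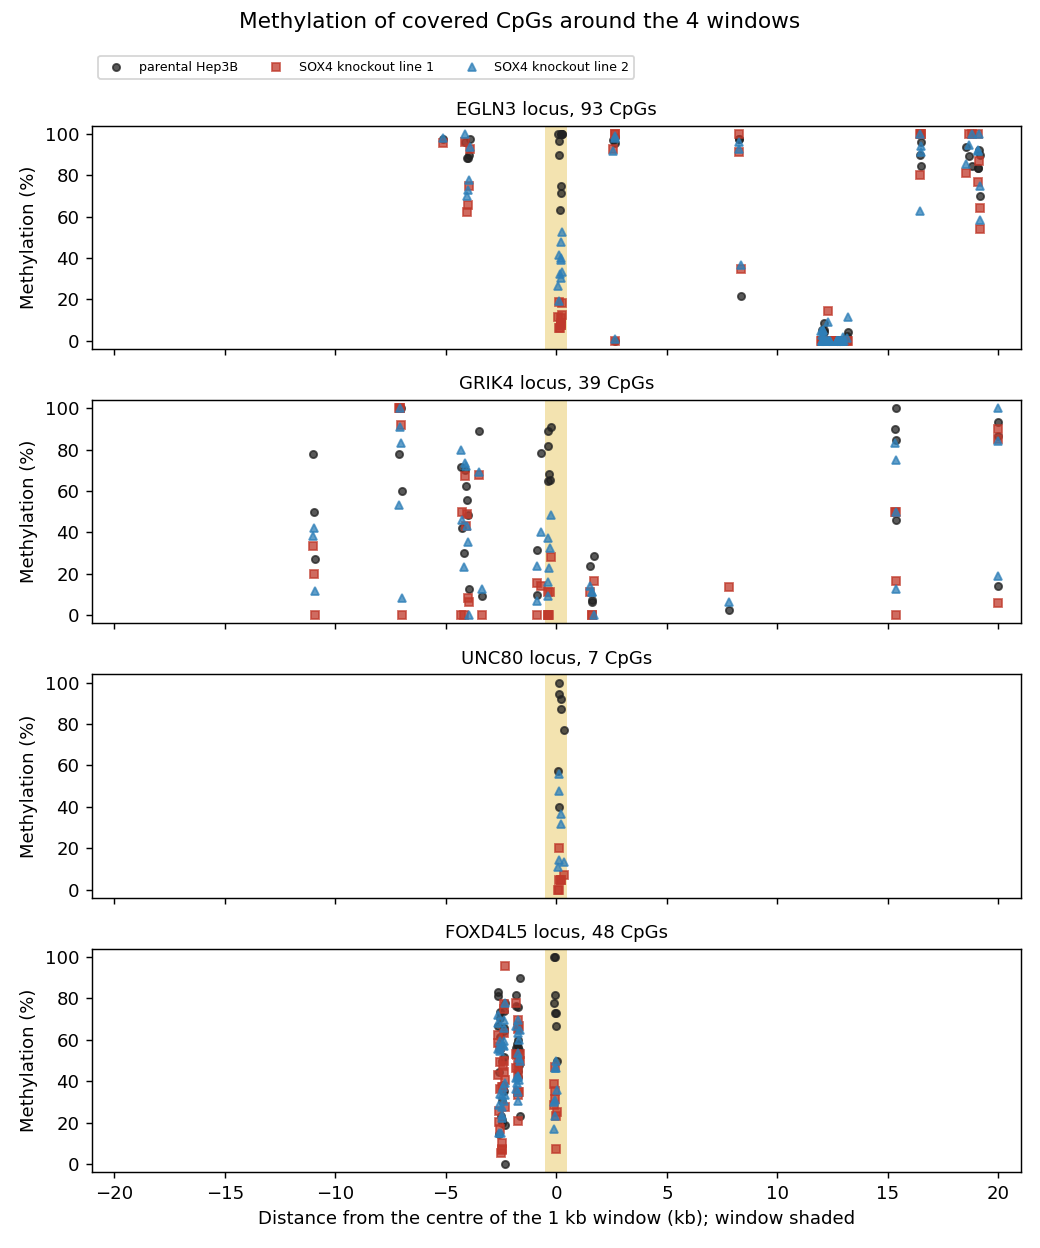
Methylation level (%) of each member CpG against its distance in kb from the centre of its 1 kb window, which is shaded, for parental Hep3B (black circles), line 1 (red squares) and line 2 (blue triangles). The red and blue points drop below the black ones inside each window, the dense group near 12 to 14 kb at EGLN3 lies at or near 0% in all 3 libraries, and UNC80 has no covered CpG outside its window.

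In the EGLN3 window the mean level over 10 CpGs was 89.6% in parental Hep3B, 10.8% in line 1 and 36.2% in line 2. For the 2 knockout lines together it was 23.5% ± 18.0 (SD, n = 2), which is -66.1 points from parental. All 10 CpGs were at least 25 points lower in both lines, and at all 10 line 2 lay between line 1 and parental Hep3B. In pooled reads, 163 of 186 were methylated in parental Hep3B (interval 82.0 to 92.0%), 24 of 240 in line 1 (interval 6.51 to 14.5%) and 79 of 215 in line 2 (30.3 to 43.6%). The pooled intervals of the 3 libraries did not overlap. The range over single CpGs was 63.3 to 100% for parental Hep3B, 6.06 to 18.5% for line 1 and 19.0 to 52.4% for line 2. At the CpG with the largest smaller fall, 34407601, methylated reads numbered 26 of 27 in parental Hep3B, 5 of 27 in line 1 and 4 of 21 in line 2, so both lines had nearly the same level there.

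The fall at EGLN3 covered 174 bp, from 34407592 to 34407765, and its edges were set by the capture rather than by the level. The extent was followed outward from the window until 2 CpGs in a row were not at least 25 points lower in both lines, or until over 2 kb held no covered CpG. On the left the next covered CpG lay 4018 bp away at 34403574, where the level was 97.6% in parental Hep3B, 92.6% in line 1 and 93.4% in line 2. On the right it lay 2288 bp away at 34410053, with 97.1%, 92.7% and 91.8% in the same order. Both neighbours were thus above 90% in all 3 libraries, and the level inside the uncovered gaps is unknown. The mean depth of the window was 18.6 reads per CpG in parental Hep3B, 24 in line 1 and 21.5 in line 2.

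**Figure D2:**
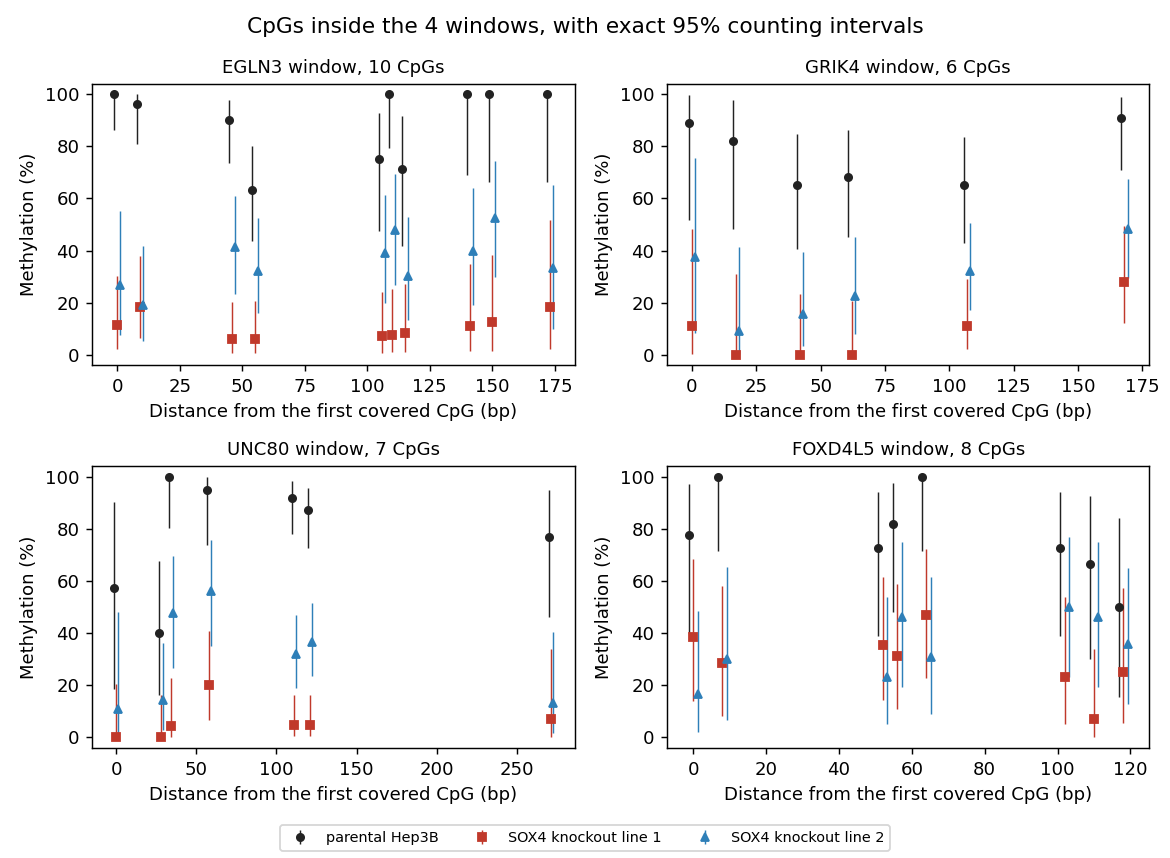
Methylation level (%) of each CpG inside the 4 windows against its distance in bp from the first covered CpG, with exact 95% intervals as bars, for parental Hep3B (black circles), line 1 (red squares) and line 2 (blue triangles). At EGLN3, GRIK4 and UNC80 every blue triangle lies between the red square and the black circle, while at FOXD4L5 this holds at 5 of 8 CpGs.

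The start of EGLN3 stood apart from the window, and nearly free of methylation in each library. Within 1 kb of the start, 58 CpGs spanned 1221 bp and lay 11699 bp or more from the last CpG of the window. Methylated reads numbered 9 of 1040 in parental Hep3B, 1 of 733 in line 1 and 14 of 1371 in line 2. The pooled level was 0.865% (interval 0.396 to 1.64%), 0.136% (0.00345 to 0.758%) and 1.02% (0.559 to 1.71%) in that order, and the intervals overlapped. The mean over CpGs was 0.646% in parental Hep3B and 0.508% ± 0.371 (SD, n = 2) in the knockout lines, a difference of -0.137 points that is smaller than the spread between the lines. At 44 of the 58 CpGs no library had a methylated read. Over all CpGs, 37.9% were under 10% in all 3 libraries.

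The highest level of a CpG near the EGLN3 start was 8.33% in parental Hep3B, so a fall of 25 points was not possible there and the test could call only a rise from parental. No CpG near the start was called between any pair of libraries by the 2-sided Fisher exact test, a call being an adjusted p under 0.05 over all 2744301 CpGs and a difference of at least 25 points. None had an unadjusted exact p under 0.05 either, the lowest being 0.389 for line 1 against parental, 0.146 for line 2 against parental and 0.290 between the lines. Across all CpGs, at any level, 0.484% were called higher in line 1 than in parental Hep3B and 0.0628% higher in line 2. In the printed promoter itself, methylated reads were 0 of 320 in parental Hep3B, 0 of 275 in line 1 and 1 of 398 in line 2. Depth at the start was lower than the median of all CpGs, at a mean of 17.9, 12.6 and 23.6 reads per CpG in parental Hep3B, line 1 and line 2, so a change of a few points at a single CpG was not detectable.

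**Figure D3:**
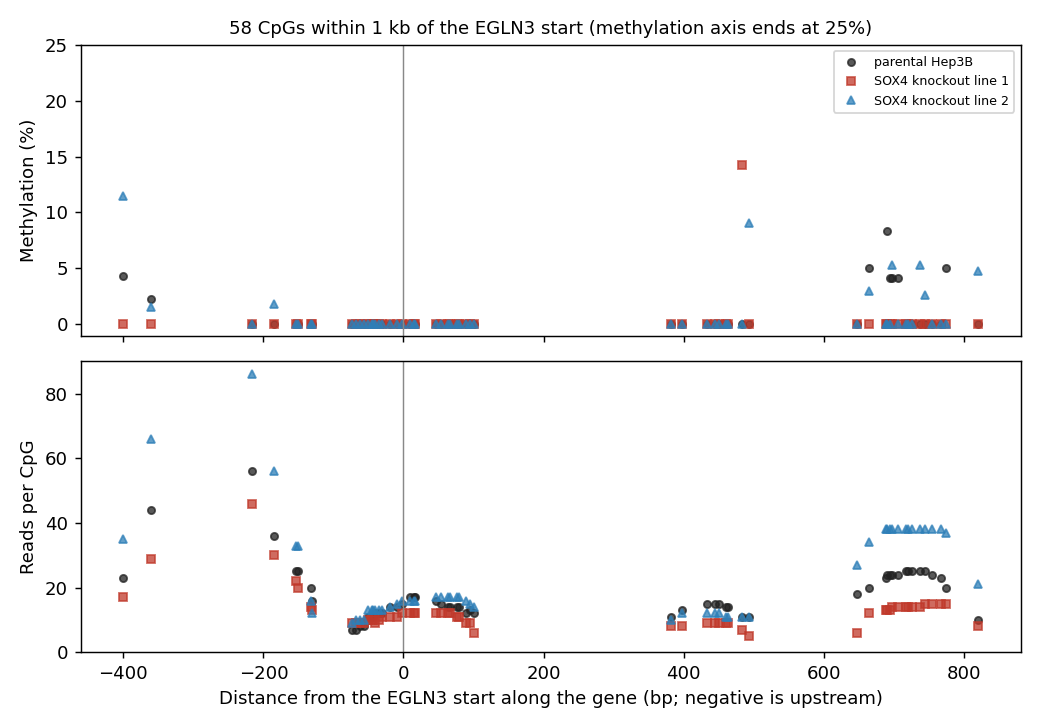
Methylation level (%, upper panel, axis ending at 25%) and reads per CpG (lower panel) of the 58 CpGs within 1 kb of the EGLN3 start, against the distance in bp from the start along the gene, for parental Hep3B (black circles), line 1 (red squares) and line 2 (blue triangles). Most points lie at 0%, and the highest is 14.3% in line 1, a single methylated read of 7.

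CpGs within 500 bp of each other were joined into captured stretches. Apart from the start and the window, the means of the captured stretches around EGLN3 lay above 70% in each library, with single CpGs far lower. The 83 CpGs outside the window averaged 26.0% in parental Hep3B, 24.9% in line 1 and 25.5% in line 2, a mean that is low because 58 of them belong to the start. The stretch of 5 CpGs left of the window averaged 91.9% in parental Hep3B, 78.3% in line 1 and 82.8% in line 2. It held the 1 CpG of the 83 in the EGLN3 flanks that was called, against 3.65% of all CpGs called lower in line 1 and 0.540% in line 2. The 58 CpGs at the start are among the 83 and could not have been called lower, so the 2 shares are not alike. At the called CpG, 34403465, methylated reads numbered 52 of 59 in parental Hep3B, 46 of 74 in line 1 and 53 of 76 in line 2. The Fisher exact test with Benjamini-Hochberg adjustment gave an adjusted p of 0.019 for line 1 against parental and 0.379 for line 2 against parental, with a fall of 26.0 points in line 1. Right of the window, 4 CpGs from 34410053 to 34410162 averaged 72.8%, 73.2% and 72.5% in parental Hep3B, line 1 and line 2. That mean hides a contrast within 110 bp, for 34410157 had 0 of 67, 0 of 61 and 1 of 103 methylated reads while the other 3 CpGs lay above 90% in every library. Nearer the start, 3 CpGs from 34415743 to 34415839 averaged 72.1%, 75.4% and 74.99% in that order, and the last of them had only 6 of 28, 8 of 23 and 16 of 44 methylated reads. The 2 stretches upstream of the start, of 4 and 8 CpGs, averaged 92.7 and 85.8% in parental Hep3B, 95 and 82.9% in line 1 and 86.9 and 87.2% in line 2.

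In the GRIK4 window the mean level over 6 CpGs was 76.7% in parental Hep3B, 8.37% in line 1 and 27.6% in line 2. For the 2 knockout lines together it was 18.0% ± 13.6 (SD, n = 2), which is -58.7 points from parental. Methylated reads numbered 80 of 107 in parental Hep3B (interval 65.4 to 82.7%), 11 of 101 in line 1 (interval 5.56 to 18.7%) and 37 of 123 in line 2 (22.1 to 39.0%), with no overlap of the intervals. At 3 of the 6 CpGs line 1 had no methylated read, among them 120504120, the CpG with the largest smaller fall. There 9 of 11 reads were methylated in parental Hep3B, 0 of 10 in line 1 and 1 of 11 in line 2. The last CpG of the window, 120504271, kept the most methylation, with 20 of 22 reads in parental Hep3B, 7 of 25 in line 1 and 14 of 29 in line 2.

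The fall at GRIK4 reached past the window on its left side by 1 CpG, which was not called. It covered 7 CpGs over 448 bp, from 120503824 to 120504271. The outermost CpG, 120503824, had 11 of 14 methylated reads in parental Hep3B, 1 of 7 in line 1 and 12 of 30 in line 2. Its adjusted p against parental in the Fisher exact test was 0.201 for line 1 and 0.536 for line 2. With at least 10 reads this CpG dropped out and the extent was 5 CpGs. At the next CpG, 187 bp beyond 120503824 at 120503637, the parental level was itself low, with 7 of 71 methylated reads against 0 of 55 in line 1 and 8 of 119 in line 2. A fall of 25 points was therefore not possible at that CpG, but it was at the next one beyond, 120503608, which had 19 of 60 methylated reads in parental Hep3B, 8 of 51 in line 1 and 25 of 106 in line 2. On the right the next covered CpG lay 1753 bp away at 120506024, with 5 of 21, 2 of 18 and 4 of 28 methylated reads in parental Hep3B, line 1 and line 2.

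Lower levels in line 1 were not limited to the window of GRIK4. The 33 CpGs of its flanks averaged 54.2% in parental Hep3B, 33.5% in line 1 and 43.0% in line 2, which is a difference of -20.7 points in line 1 and -11.1 points in line 2. Of these 33 CpGs, 12 were at least 25 points lower in line 1 and 6 in both lines, against 8.96% and 3.13% of all CpGs. Over all CpGs the Fisher exact test called 3.65% lower in line 1, 0.540% in line 2 and 0.452% in both. It called 0.484% higher in line 1 and 0.0628% higher in line 2. Of the 33 flank CpGs, 3 were called lower in line 1, of which 1 was also lower in line 2, and none higher in either line. That 1 CpG, 120497516, had 12 of 20 methylated reads in parental Hep3B, 0 of 24 in line 1 and 4 of 47 in line 2, and the adjusted p was 0.00037 for line 1 and 0.0063 for line 2. It stood alone, since the CpG 56 bp away, 120497460, had 15 of 15 methylated reads in parental Hep3B, 11 of 12 in line 1 and 30 of 36 in line 2.

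The other 2 called CpGs of the GRIK4 flanks were called in line 1 against parental Hep3B, and not in line 2 or between the lines. At 120500340, 13 of 43 reads were methylated in parental Hep3B, 0 of 50 in line 1 and 17 of 73 in line 2, with an adjusted p of 0.00077 for line 1 and 1.0 for line 2 against parental in the Fisher exact test. At 120500487 the counts were 15 of 31, 3 of 36 and 18 of 51 in the same order, with an adjusted p of 0.0089 for line 1 and 1.0 for line 2. Between the knockout lines, the first of these CpGs had an adjusted p of 0.011 but differed by 23.3 points, under the 25 points of a call, and the second had an adjusted p of 0.181.

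The GRIK4 stretch with the next largest difference lay about 15 kb to the right of the window. Its 4 CpGs, 71 bp from 120519806 to 120519876, averaged 80.2% in parental Hep3B, 29.2% in line 1 and 55.2% in line 2. The difference was -51.0 points in line 1 and -24.98 points in line 2, and 3 of the 4 CpGs were at least 25 points lower in both. Depth there was low, with 24 reads over the 4 CpGs in line 1 and 30 in line 2, and none of the 4 CpGs was called. By contrast, 3 CpGs at the far right end of the flank averaged 64.8%, 60.3% and 67.7% in parental Hep3B, line 1 and line 2. Between the window and these stretches, the level at the single CpG 120512316 was higher in both lines, with 1 of 39 methylated reads in parental Hep3B, 6 of 44 in line 1 and 3 of 48 in line 2, and was not called.

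In the UNC80 window the mean level over 7 CpGs was 78.3% in parental Hep3B, 5.89% in line 1 and 30.2% in line 2. For the 2 knockout lines together it was 18.0% ± 17.2 (SD, n = 2), which is -60.2 points from parental. Methylated reads numbered 123 of 147 in parental Hep3B (interval 76.7 to 89.3%), 11 of 182 in line 1 (interval 3.06 to 10.6%) and 64 of 189 in line 2 (27.2 to 41.1%). All 7 CpGs were at least 25 points lower in both lines, and line 2 was in between at all 7. The deepest of them, 210737705, had 34 of 39 methylated reads in parental Hep3B, 2 of 42 in line 1 and 18 of 49 in line 2. The CpG with the largest smaller fall, 210737855, had 10 of 13, 1 of 14 and 2 of 15 methylated reads in that order, and is also the last of the 7. Levels varied among the parental CpGs, from 40.0% at 210737612 to 100% at 210737618, 6 bp away.

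The UNC80 locus was this short stretch and nothing else. The fall covered all 7 CpGs over 272 bp, from 210737584 to 210737855, and no further CpG within 20 kb was read in any library. The nearest compared CpG on the left lay 26804 bp away, with 88.5% in parental Hep3B, 13.3% in line 1 and 73.0% in line 2. On the right it lay 61061 bp away, with 85.4%, 39.7% and 61.1% in the same order. Line 1 was lower than line 2 at both, but these CpGs lie outside the locus as defined. How far the fall extended between them could not be measured.

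**Figure D4:**
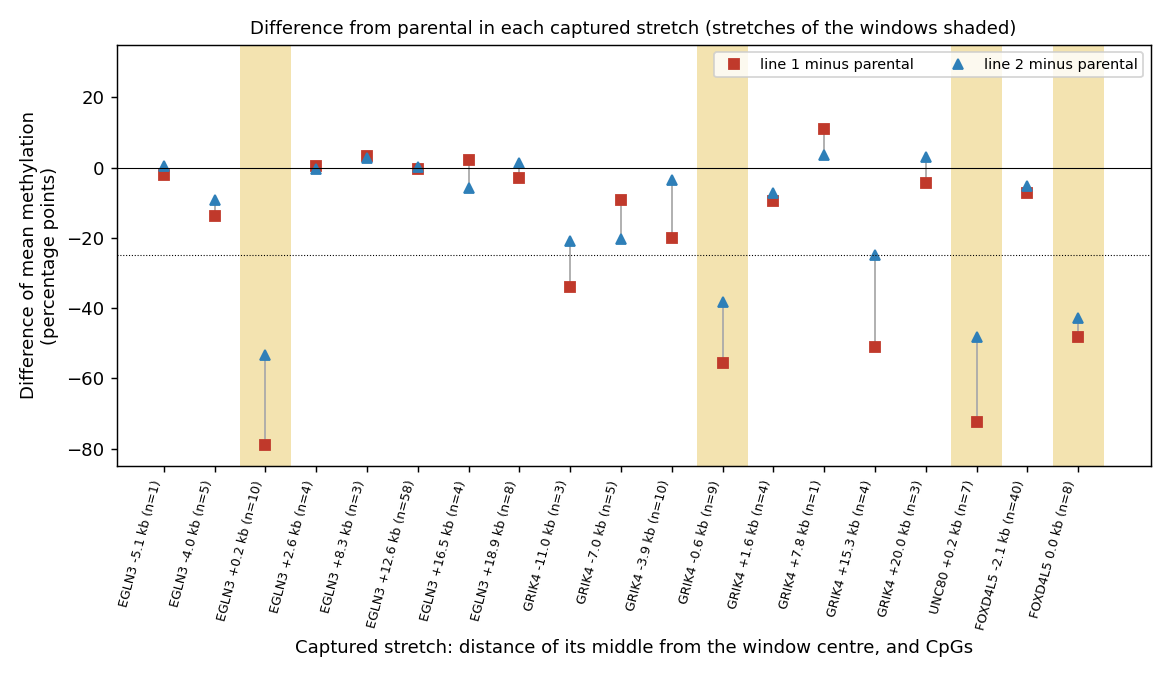
Difference of the mean methylation level from parental Hep3B, in percentage points, for line 1 (red squares) and line 2 (blue triangles) in each of the 19 captured stretches, labelled with the gene, the distance of the stretch's middle from the window centre and its number of CpGs (n). The stretches that hold the windows are shaded and lie below the dotted line at -25 points in both lines, and no other stretch does.

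At FOXD4L5 the 8 CpGs of the window averaged 77.7% in parental Hep3B, 29.5% in line 1 and 34.8% in line 2. For the 2 knockout lines together it was 32.1% ± 3.77 (SD, n = 2), which is -45.6 points from parental. Methylated reads numbered 64 of 81 in parental Hep3B (interval 68.5 to 87.3%), 35 of 116 in line 1 (interval 22.0 to 39.4%) and 36 of 102 in line 2 (26.1 to 45.4%). Here the intervals of the 2 knockout lines overlapped, and both lay below that of parental Hep3B. All 8 CpGs were at least 25 points lower in line 1 but only 5 were in line 2, and line 2 lay between line 1 and parental Hep3B at 5 of 8. The CpG with the largest smaller fall, 70179400, had 11 of 11 methylated reads in parental Hep3B, 4 of 14 in line 1 and 3 of 10 in line 2. At the last CpG, 70179510, the counts were 4 of 8, 3 of 12 and 5 of 14 in the same order, with overlapping intervals. No CpG of this window had more than 17 reads in any library, the lowest depth of the 4 windows.

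The extent of the fall at FOXD4L5 depended on how gaps without a covered CpG and CpGs that were not lower were treated. On the right it ended inside the window at 70179456, because the next CpG, 70179494, had 8 of 11 methylated reads in parental Hep3B, 3 of 13 in line 1 and 7 of 14 in line 2. On the left, the steps outward crossed 1531 bp without a covered CpG and reached 70177847, which had 18 of 20, 8 of 15 and 20 of 31 methylated reads. The extent came to 1610 bp and 7 CpGs, of which 6 were lower in both lines. The other, 70177861, was 26.9 points higher in both lines, so this extent spans a rise as well as the gap. It came to 5 CpGs when gaps over 500 bp ended it, and also when the first CpG that was not lower ended it. With a difference of 10 points it came to 10 CpGs. At 70177814, 33 bp beyond the left end, the knockout lines were the higher ones, with 12 of 18 methylated reads in line 1 and 21 of 35 in line 2 against 12 of 25 in parental Hep3B.

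All 40 CpGs of the FOXD4L5 flanks lay in 1 dense stretch of 1008 bp to the left of the window, with intermediate levels. They averaged 52.2% in parental Hep3B, 44.9% in line 1 and 46.9% in line 2, a difference of -7.29 points in line 1 and -5.25 points in line 2. Both lines had the lower level at 24 of the 40 CpGs, and 3 were at least 25 points lower in both, against 3.13% of all CpGs. A pair of neighbouring CpGs was called lower in line 1 and none in line 2, against 3.65% and 0.540% of all CpGs. At 70176939 the methylated reads were 32 of 52 in parental Hep3B, 11 of 65 in line 1 and 25 of 74 in line 2, with an adjusted p of 7.2e-05 for line 1 and 0.185 for line 2 in the Fisher exact test. At 70176941 they were 39 of 53, 25 of 69 and 42 of 75, with an adjusted p of 0.0023 for line 1 and 0.820 for line 2. Within the same stretch 2 CpGs were at least 25 points higher in both lines, against 0.728% of all CpGs, and neither was called. At 70177163 the methylated reads were 0 of 15 in parental Hep3B, 11 of 27 in line 1 and 11 of 28 in line 2, and at 70177861 they were 3 of 13, 5 of 10 and 10 of 20. Because near-identical copies of this sequence exist, reads counted here may come from more than 1 copy, so that a level may mix several loci.

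Set beside each other, the 4 windows had the same order of mean levels, with line 1 lowest and parental Hep3B highest. The knockout lines lay closer together at FOXD4L5 than in the other windows. The difference of line 1 from line 2 was -25.5 points at EGLN3, -24.3 at UNC80 and -19.3 at GRIK4, but -5.33 at FOXD4L5. The change in line 2 was 0.677 of the change in line 1 at EGLN3, 0.718 at GRIK4, 0.664 at UNC80 and 0.889 at FOXD4L5. Line 2 was intermediate at 85.8% of all CpGs at which line 1 was at least 25 points lower, so an intermediate line 2 is the usual case among such CpGs. Their selection by a low level in line 1 by itself favours an intermediate line 2. Of all windows with at least 5 CpGs, 0.641% were at least 25 points lower in both lines.

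Across the 156 CpGs outside the windows, 6 were called lower in line 1, 1 in line 2 and the same 1 in both, and none was called higher in either line. Between the lines none was called either, against 0.831% of all CpGs lower and 0.141% higher in line 1 than in line 2. As shares of all CpGs, 3.65% were called lower in line 1, 0.540% lower in line 2 and 0.452% lower in both. Called higher were 0.484% in line 1 and 0.0628% in line 2. The count in the flanks was thus close to the background. Without the CpGs at the EGLN3 start, where a fall of 25 points was not possible, it was 6 of 98 in line 1 and 1 of 98 in line 2. At an unadjusted exact p under 0.05, 20 flank CpGs differed between line 1 and parental, 10 between line 2 and parental and 8 between the lines, against 11.3%, 6.68% and 7.26% of all CpGs. Of 13 flank stretches of 3 or more CpGs, none was at least 25 points lower in both lines, as 1.27% of such stretches were in the whole data set. In line 1 alone 2 were, both at GRIK4 (from 120493469 and from 120519806), as 6.82% of such stretches were. In line 2 these 2 stretches differed from parental by -20.9 and -24.98 points, so the second was just short of the 25 points. In pooled reads the line 2 differences were -19.4 and -26.3 points, so the count of none in both lines depends on the weighting. In the knockout lines the EGLN3 window thus lay far below its covered neighbours, and no edge could be seen at UNC80. GRIK4 had on either side a flank stretch with a lower mean in both lines, by less in line 2.

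The share of reads that fell in the windows differed between the libraries. Read dosage is the share of a library's CpG reads at a locus relative to parental Hep3B, scaled so that the median chromosome is at 1. In the windows it was 1.42 in line 1 and 0.914 in line 2 at EGLN3, 1.37 and 1.02 at UNC80, 1.58 and 0.996 at FOXD4L5, and 1.04 and 0.909 at GRIK4. Line 1, which had the lowest methylation, thus had a larger share of its reads than parental Hep3B in all 4 windows, by little at GRIK4. In line 2, whose mean methylation was also below parental in all 4 windows, the dosage lay between 0.909 and 1.02. Windows at least 25 points lower in both lines had a median dosage of 1.16 in line 1 and 1.05 in line 2, against 1.01 and 0.991 for all windows. In line 1 the quartiles were 0.915 and 1.43 for such windows and 0.840 and 1.22 for all windows. Outside the 4 windows the dosage was 0.889 in line 1 and 1.05 in line 2 at EGLN3, and 1.35 and 1.19 at FOXD4L5. At GRIK4 it was 1.06 and 1.196 outside the window, while the whole of chromosome 11 stood at 1.34 in line 1 and 1.15 in line 2. The part of read dosage in the levels was not tested.

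**Figure D5:**
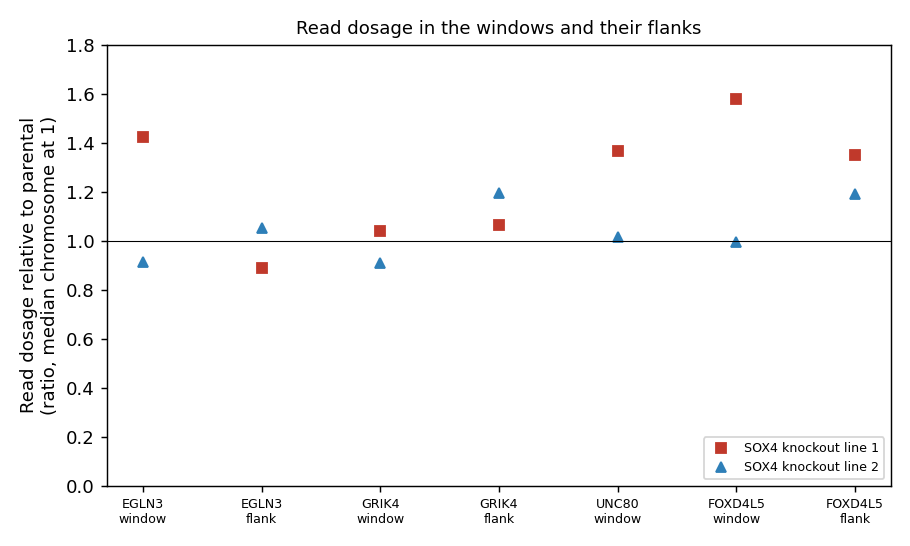
Read dosage relative to parental Hep3B (ratio, with the median chromosome at 1) in the windows and flanks of the 4 genes, for line 1 (red squares) and line 2 (blue triangles). Line 1 lies at 1.42, 1.37 and 1.58 in the windows of EGLN3, UNC80 and FOXD4L5, and line 2 lies between 0.909 and 1.196 throughout.

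The strand that was read differed between the genes. All reads of the EGLN3, GRIK4 and UNC80 windows came from the complementary strand, which carried 86.7 to 87.0% of the reads of the libraries. At FOXD4L5 that strand carried 81.5% of the reads of parental Hep3B, 63.8% of line 1 and 61.8% of line 2. Its level there was 81.8% in parental Hep3B, 31.1% in line 1 and 33.3% in line 2, and that of the forward strand was 66.7%, 28.6% and 38.5%, so both strands were lower in the knockout lines.

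Starts of the members, and of genes that act with them or belong to their families, were examined where a RefSeq promoter could be placed by its CpG spacing. This step was chosen after the data were seen. Of the members, the starts of UNC80 and 1 of 2 promoters of GRIK4 were placed beside that of EGLN3, and FOXD4L5, with 2 CpGs in its promoter sequence, was not. The GRIK4 start lay 68858 bp from the window and its 99 CpGs within 1 kb averaged 4.69% in parental Hep3B, 3.10% in line 1 and 3.94% in line 2. The UNC80 start lay 100445 bp from the window and its 42 CpGs averaged 1.08%, 3.23% and 2.71% in that order. The 3 starts thus had low mean methylation in all libraries, and no CpG of theirs was called between any pair of libraries. Only 8 of their 199 CpGs, all at GRIK4, were at 25% or more in parental Hep3B, so few could have been called lower.

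Among the partner and family genes, 9 of 21 could be placed, at 10 starts with 640 CpGs. Of these CpGs, 14 were called lower and 1 higher in line 1, and 1 lower and 1 higher in line 2. As shares of all CpGs, 3.65% were called lower and 0.484% higher in line 1, and 0.540% lower and 0.0628% higher in line 2, but only 163 of the 640 CpGs were at 25% or more in parental Hep3B and could have been called lower. Of the HIF hydroxylases and HIF subunits, 4 of 8 genes were placed (EGLN2, HIF1AN, HIF1A and ARNT), with 3 of 246 CpGs called lower in line 1, none in line 2 and 6 of the 246 at 25% or more in parental Hep3B. ARNT, the partner that HIF alpha subunits bind, held 2 of these, with 72 of 1651 methylated reads in parental Hep3B, 23 of 1625 in line 1 and 36 of 2063 in line 2 over its 36 CpGs. For the kainate receptor genes only GRIK2 was placed, at 2 starts, 1 of them methylated throughout at 96.6% in parental Hep3B, 94.2% in line 1 and 95.4% in line 2, and no CpG was called. Of the NALCN channel genes, NALCN, UNC79 and NALF1 were placed, and of 208 CpGs 3 were called lower and 1 higher in line 1 than in parental Hep3B, 1 lower and 1 higher in line 2, and 1 lower and 1 higher in line 1 than in line 2. At FOXD4, the gene of the FOXD4 family that was placed, 89 CpGs, 83 of them at 25% or more in parental Hep3B, averaged 65.6% in parental Hep3B, 55.8% in line 1 and 61.3% in line 2. Of these, 8 were called lower in line 1, out of the 14 above, and none in line 2. The 89 CpGs had 21768, 17815 and 25869 reads in parental Hep3B, line 1 and line 2, far above the medians of 26, 24 and 32 reads per CpG over all CpGs. The Fisher exact test thus had more reads there than at most CpGs behind the shares of all CpGs. There too the reads may come from near-identical copies.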

How the data were processed

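Genomic DNA of parental Hep3B cells and SOX4 knockout lines 1 and 2 (1 library each) was sheared, enriched with the TruSeq Methyl Capture EPIC probes, bisulfite treated and sequenced on a NovaSeq instrument. The deposited files give 1 record per CpG cytosine and strand, with unnormalized counts of total, context and methylated reads made by the authors. They also give a methylation level, a fraction that the authors computed as methylated over context reads, and it equalled that quotient within 1e-06 at every cytosine. The build is GRCh37/hg19 per the submitters' processing notes. The aligner, the methylation caller and any removal of duplicates are not given in the sources used here.

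Strands were summed per CpG, and CpGs with at least 5 context reads in all 3 libraries were compared. Levels of windows and stretches are unweighted means over CpGs. Each pair of libraries was compared by 2-sided Fisher exact tests with Benjamini-Hochberg adjustment over all CpGs, and the test was tested on simulated data. RefSeq promoters were placed on the CpG positions where at least 10 CpGs and at least 2 in 3 matched and no CpG in the files lay unmatched inside the sequence. The members, gene lists and thresholds were chosen with earlier results of these data known. Named CpGs are, in each window, that with the largest smaller fall of the lines, the outermost of the extent and the first beyond each edge, and the called flank CpG with the largest difference. Other CpGs were named after their values were seen. Alternatives covered the read minimum, the difference called, the adjusted p, strand, weighting by reads, rules for the extent, the stretch gap and leaving out a line. Tests were run in scipy 1.17.1 and numba 0.67.0 under Python 3.11.15, and tables were handled in pandas 2.3.3.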

Additional observations from a re-analysis of the deposited data

How the results depend on the processing

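Of 121 values computed under alternatives for 17 results, 109 moved by less than the spread between the knockout lines or stayed within 1.5 times the count, and 12 moved by more. Some of the 109 could not have moved. Leaving out a line always moves a mean difference by less than that spread. The complementary strand held all reads of the EGLN3, GRIK4 and UNC80 windows, so their differences on that strand alone were the same by construction. No difference in a window changed sign, whereas that at the EGLN3 start did within 500 bp of the start and without line 1. The difference in the FOXD4L5 window was -50.9 points with at least 10 reads and -49.5 points on the complementary strand alone, against -45.6 points. The extent was 3 CpGs at EGLN3 and 2 each at GRIK4 and UNC80 with at least 20 reads, which keeps fewer CpGs, and at FOXD4L5 that minimum left no CpG. It was 2 CpGs at GRIK4 and 4 at FOXD4L5 when 50 points were asked for, and 12 at FOXD4L5 with at least 1 read. With 50 points, 1 flank CpG was called lower in line 1, against 6. Leaving out a line gave 1 to 6 flank CpGs called lower in all lines kept, the 6 coming without line 2. The difference at the EGLN3 start was -0.565 points with at least 10 reads and 0.296 points within 500 bp, against -0.137. The cause of the moves at FOXD4L5 and at the EGLN3 start was not tested. Leaving out a line gave -78.8 to -53.4 points in the EGLN3 window, -68.3 to -49.0 at GRIK4, -72.4 to -48.1 at UNC80, -48.2 to -42.9 at FOXD4L5 and -0.399 to 0.125 at the EGLN3 start. No paired analysis was possible because a single parental library was compared with 2 knockout lines. Depth limits single CpGs, since 1 member had only 5 reads in a library.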
